A study of Homo sapiens with 8 samples.

Results

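To learn which transcripts became measurable when UHRF1 was depleted, whether or not histone deacetylases were also inhibited, the probes of a single-colour human expression array were searched for those that were dark in control cells and lit in depleted cells under both agents. A probe was taken when its processed signal was at least 20 on each of the 4 arrays of UHRF1-depleted cells and below 10 on each of the 4 arrays of control cells. The members chosen by these signals were 24 of the 50599 non-control probes (0.0474%), and each stood for a different gene or locus. The values that chose them are the same values that separate depleted from control cells, so that contrast is given below as a description, without a test.

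The cells were DLD1, an established human colorectal cancer line. All arrays carried RNA of cells transfected with an siRNA: a control siRNA (siCONT), or siUHRF1-1 or siUHRF1-2 against UHRF1. After 48 h the medium received 300 nM trichostatin A (TSA), which blocks histone deacetylases, or ethanol (mock) for another 24 h. The 4 groups of 2 arrays were therefore siCONT with mock, UHRF1 siRNA with mock, siCONT with TSA, and UHRF1 siRNA with TSA. In a depleted group the 2 arrays were the 2 different siRNAs, each used once per agent, and it is not stated that the 2 arrays of a siCONT group were separate cultures, so the spread between arrays may be partly technical. Depletion was partial: relative to siCONT with the same agent, the probe of UHRF1 nearer to the end of the gene on chromosome 19 kept 31.9% of its level with siUHRF1-1 and 24.8% with siUHRF1-2 under mock, and 16.7% and 11.1% under TSA. The other probe of UHRF1 kept 32.9% and 28.6% under mock, and under TSA its signal did not rise well above background in depleted cells.

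UHRF1 recognises hemimethylated DNA behind the replication fork and brings the maintenance methyltransferase DNMT1 to it, so that cells that divide without UHRF1 lose DNA methylation. Cancer-testis genes, most of them on the X chromosome in clusters of near-identical copies, are transcribed in germ cells and kept silent in most other tissues, with DNA methylation of their promoters as one of the known layers. Histone deacetylation is another layer of silencing, which TSA relieves.

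The promoter windows below show how differently the members' start sites are built: 1 with dense CpG sites, 1 with almost none, and the windows of 3 cancer-testis genes between them. Each is the 250 bases before the RefSeq start site (GRCh38.p14), 5′ to 3′ on the gene's strand, with every CpG in capitals.
CBS (chr21:43076378-43076627, minus strand): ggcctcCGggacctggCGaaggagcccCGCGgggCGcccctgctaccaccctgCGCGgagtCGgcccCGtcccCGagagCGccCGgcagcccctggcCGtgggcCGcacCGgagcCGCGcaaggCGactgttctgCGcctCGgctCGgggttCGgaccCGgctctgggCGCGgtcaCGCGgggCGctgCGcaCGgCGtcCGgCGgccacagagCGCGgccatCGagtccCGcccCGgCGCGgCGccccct
XAGE1A (chrX:52495627-52495876, plus strand): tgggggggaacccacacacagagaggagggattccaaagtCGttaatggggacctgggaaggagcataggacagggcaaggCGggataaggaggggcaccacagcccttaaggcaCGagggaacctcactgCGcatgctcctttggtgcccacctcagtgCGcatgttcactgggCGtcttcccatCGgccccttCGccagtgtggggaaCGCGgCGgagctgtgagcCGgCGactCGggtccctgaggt
MAGEA2B (chrX:152714378-152714627, plus strand): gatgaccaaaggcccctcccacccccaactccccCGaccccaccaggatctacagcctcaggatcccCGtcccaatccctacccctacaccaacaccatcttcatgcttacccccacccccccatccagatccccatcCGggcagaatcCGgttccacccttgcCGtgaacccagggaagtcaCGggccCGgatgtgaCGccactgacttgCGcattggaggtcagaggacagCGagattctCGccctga
MAGEA9 (chrX:149781680-149781929, plus strand): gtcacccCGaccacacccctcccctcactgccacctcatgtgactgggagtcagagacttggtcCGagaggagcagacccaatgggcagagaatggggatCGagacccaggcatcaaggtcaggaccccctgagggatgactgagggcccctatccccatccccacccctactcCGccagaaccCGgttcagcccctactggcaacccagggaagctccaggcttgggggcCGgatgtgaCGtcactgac
TEX101 (chr19:43388361-43388610, plus strand): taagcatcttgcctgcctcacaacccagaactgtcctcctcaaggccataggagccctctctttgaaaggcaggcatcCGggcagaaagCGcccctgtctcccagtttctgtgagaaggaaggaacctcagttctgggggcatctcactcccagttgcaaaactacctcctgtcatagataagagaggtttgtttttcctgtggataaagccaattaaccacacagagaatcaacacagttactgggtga

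The window of CBS held 41 CpG sites, that of XAGE1A 14, that of MAGEA2B 11, that of MAGEA9 7 and that of TEX101 only 2. Among the longest runs of letters shared by the windows of MAGEA9 and MAGEA2B was aacccagggaag. It began 47 bases before the start of MAGEA9 and 82 bases before that of MAGEA2B. A shared run of the same length, which holds CpG sites, lies nearer to the start in both windows and was not searched elsewhere. The run aacccagggaag stood, on either strand, in the promoter windows of 9 of 15701 array genes. Among these were MAGEA12, CSAG1 and CSAG3, which belong to the same cluster. A shared run is a description of the letters and not a binding site.

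The arrays themselves were alike in depth. The share of probes well above background ran from 43.3% to 48.0%, and the signal at the 75th percentile from 137 to 189. The lowest signal called well above background was between 12.2 and 14.0. Colon epithelial markers fitted the label, with 14 or 15 of 15 probes well above background on both arrays of every group. Marker probes of endothelium, fibroblasts and leukocytes were mostly at background: in the 4 groups, 0 to 2 of 8 endothelial, 0 or 1 of 7 fibroblast and 2 or 3 of 10 leukocyte probes passed on both arrays. Of the neuronal marker probes 3 or 4 of 7 passed. In RNA of a whole culture, fewer cells that make a transcript and less of it per cell cannot be told apart.

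All 24 members were well above background on the 4 arrays of depleted cells. None was on the siCONT arrays, which the limit of 10 settled in advance, since no signal under 12.2 was called well above background. Over members and arrays, the signal was between 2.42 and 9.89 in siCONT cells and between 20.1 and 1403 in depleted cells. No probe followed the mirror rule, with at least 20 on all siCONT arrays and below 10 on all depleted arrays. For comparison, 186 probes were lit by TSA whichever siRNA was used, 128 only by the combination, and 16 by UHRF1 depletion under mock and not under TSA. Because siCONT cells had no level above background, the difference is given as a lower bound, in which the depleted cells' mean is set against the lowest signal well above background on the siCONT arrays. The bound was between 1.48-fold and 56.1-fold under mock (median 4.87) and between 2.24-fold and 28.6-fold under TSA (median 5.41). It was over 4-fold for 13 members under mock and for 16 under TSA.

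**Figure D1:**
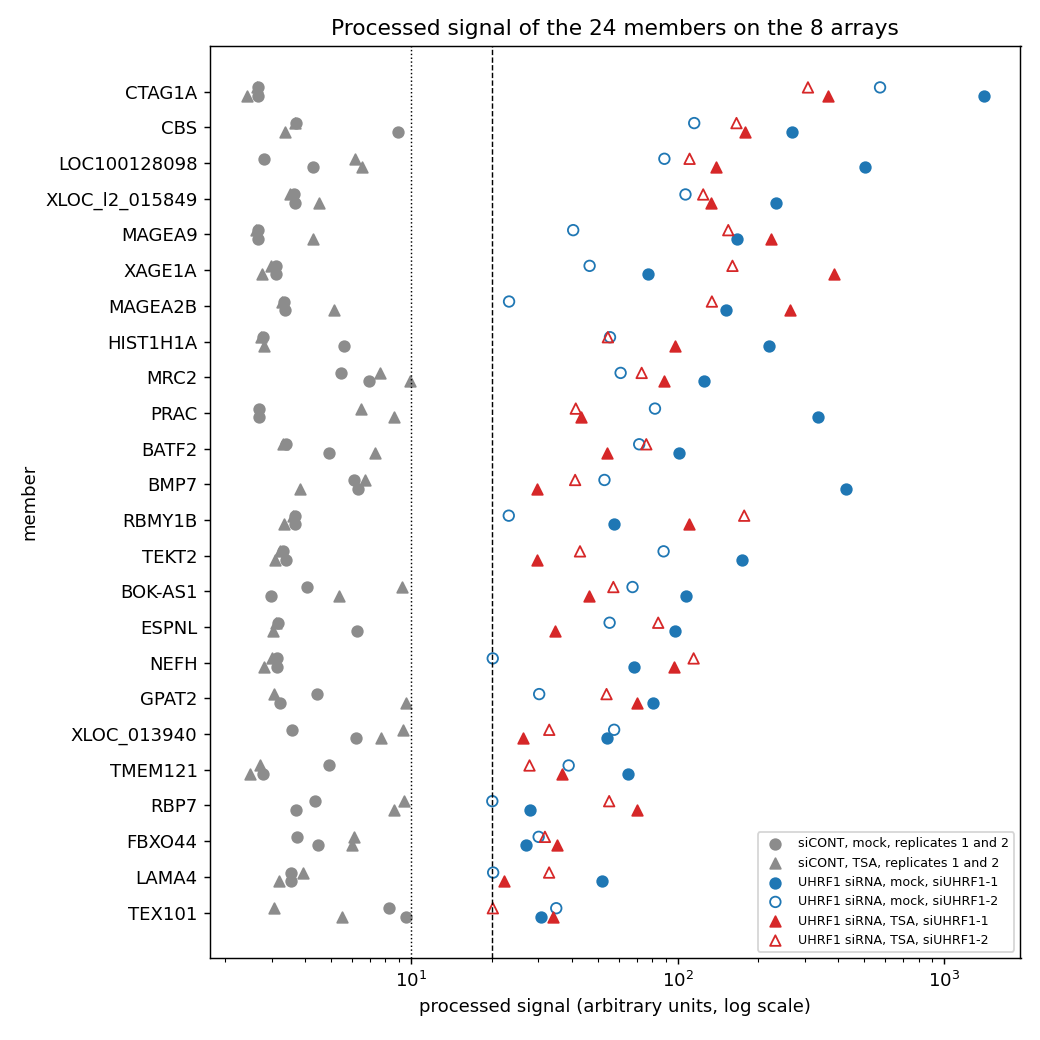
Processed signal (arbitrary units, log scale) of each member on the 8 arrays, in order of the mean level over the arrays of depleted cells, with the limits of 10 (dotted) and 20 (dashed). The grey points of siCONT cells end at 9.89 and the coloured points of depleted cells begin at 20.1, and CTAG1A reaches 1403 with siUHRF1-1 under mock.

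The members closest to the limits were RBP7, NEFH, TEX101 and LAMA4, whose lowest signals in depleted cells were 20.1, 20.2, 20.2 and 20.3, and MRC2, whose highest signal in siCONT cells was 9.89. Just outside were a further probe of RBMY1B, with a highest siCONT signal of 10.1, CD6 with 10.1, FGF20 with 10.4 and KCNA6 with 10.4, and SAG, whose lowest signal in depleted cells was 19.3.

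The cancer-testis group gave the brightest member. CTAG1A encodes the tumour antigen NY-ESO-1, and its probe (chrX:153815008-153815067, hg19) read 1403 under mock and 365 under TSA with siUHRF1-1, 573 and 308 with siUHRF1-2, and 2.65 and 2.66 (mock) and 2.42 and 2.63 (TSA) with siCONT. It was at least 56.1-fold higher in depleted cells under mock and at least 28.6-fold higher under TSA, the largest bounds among the 24 members with either agent. In the values that follow, of the depleted arrays of an agent siUHRF1-1 is given before siUHRF1-2.

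XAGE1A, another cancer-testis antigen of the X chromosome (chrX:52241141-52241200), read 77.5 and 46.7 under mock and 384 and 160 under TSA in depleted cells, against 2.77 to 3.11 on the siCONT arrays. Its order was opposite to that of CTAG1A, with both TSA arrays above both mock arrays. MAGEA9 (chrX:148869122-148869181) read 167 and 40.5 under mock and 223 and 155 under TSA, against 2.62 to 4.27 with siCONT. MAGEA2B (chrX:151886664-151886723), of the same MAGE-A family but not in the cancer-testis list used here, read 152 and 23.3 under mock and 264 and 134 under TSA, against 3.27 to 5.14. By unscaled signal, the siUHRF1-1 mock array lay among the TSA arrays for both MAGE-A genes and the siUHRF1-2 mock array far below them. On the scaled log2 level used in the tests below, both TSA arrays lay above both mock arrays. The siUHRF1-1 mock array was then at -0.18 against 0.58 and -0.08 for MAGEA9, and at -0.32 against 0.82 and -0.28 for MAGEA2B. MAGE-A proteins bind and steer ubiquitin ligases. The MAGEA2B, MAGEA9, XAGE1A and CTAG1A genes have near-identical copies, and their probes may read more than 1 copy.

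Also on the X chromosome, the probe XLOC_l2_015849 (chrX:152661129-152661188), which the array's annotation ties to a cDNA clone from testis, read 233 and 107 under mock and 133 and 124 under TSA, against 3.50 to 4.52. Together 5 of 24 members were on the X chromosome (20.8%), against 3.48% of all probes with a coordinate, 4.86% of the probes lit by TSA whichever siRNA was used, 14.2% of those lit only by the combination and 25.0% (4 of 16) of those lit by UHRF1 depletion under mock and not under TSA. Of the 5, the 4 other than XAGE1A lay within 4.95 megabases (chrX:148869122-153815067), a stretch singled out after its members were seen, which holds 0.311% of the array's probes. The Y chromosome gave 1 member, RBMY1B, of a germ cell family of RNA-binding proteins in several near-identical copies.

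RBMY1B (chrY:23687208-23687267) read 57.8 and 23.2 under mock and 110 and 177 under TSA, against 3.32 to 3.67 with siCONT. Both TSA arrays lay above both mock arrays, as for XAGE1A. Its further probe just outside the limits followed the same order, with 69.2 and 37.7 under mock and 123 and 182 under TSA. TEX101 (chr19:43922526-43922585), a surface glycoprotein of male germ cells, was among the dimmest members: it read 30.5 and 35.0 under mock and 33.9 and 20.2 under TSA, against 3.04 to 9.52. TEKT2 (chr1:36553724-36553783), a tektin of the axonemes of sperm tails and cilia, read 174 and 88.4 under mock and only 29.6 and 42.9 under TSA, against 3.08 to 3.40. Its mock arrays both lay above its TSA arrays.

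The other protein-coding members were not of 1 kind. CBS (chr21:44473319-44473378), which condenses homocysteine with serine in the transsulfuration pathway, read 268 and 115 under mock and 178 and 166 under TSA, against 3.35 to 8.92. It was at least 11.0-fold and 14.7-fold higher in depleted cells under the respective agents. HIST1H1A (now H1-1, chr6:26017351-26017410), a linker histone, read 220 and 55.6 under mock and 97.4 and 54.6 under TSA, against 2.73 to 5.59. For CBS and HIST1H1A the brightest array was siUHRF1-1 under mock and the other 3 were closer together.

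BMP7 (chr20:55745555-55745614), a secreted ligand of the BMP receptors, read 428 and 53.0 under mock and 29.5 and 41.2 under TSA, against 3.84 to 6.68. Here the siUHRF1-1 mock array alone stood far above the rest. PRAC (now PRAC1, chr17:46799244-46799721), a small nuclear protein made in prostate, rectum and distal colon, read 335 and 82.0 under mock and 43.5 and 41.4 under TSA, against 2.67 to 8.64. Both of its mock arrays lay above its TSA arrays. BATF2 (chr11:64755572-64755631), a leucine-zipper transcription factor induced by interferon, read 101 and 71.6 under mock and 54.4 and 76.1 under TSA, against 3.30 to 7.31.

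Both MRC2 and LAMA4 act at the cell surface and in the matrix. MRC2 (chr17:60770827-60770886), an endocytic collagen receptor, read 126 and 61.0 under mock and 88.5 and 73.1 under TSA, against 5.45 to 9.89. LAMA4 (chr6:112574987-112575046, a probe annotated to transcript variant 5), a laminin chain of vessel and muscle basement membranes, read 52.1 and 20.3 under mock and 22.2 and 32.9 under TSA, against 3.20 to 3.92. In neither did the agents separate. The summed signals of fibroblast and endothelial markers were also higher in treated cells, mostly through single probes: the summed signal of the 7 fibroblast probes was 34.7 and 35.0 on the siCONT mock arrays, 47.6 and 52.2 on the depleted mock arrays, 79.6 and 103 with siCONT and TSA, and 103 and 223 with both. The sum of the 8 endothelial probes was 41.3 and 45.4, 73.6 and 132, 183 and 184, and 288 and 289 in the same order. With both treatments COL1A1 gave 72.3 and 135 of the fibroblast sum and VWF 221 and 225 of the endothelial sum, while COL1A2, COL3A1 and KDR were below background on all 8 arrays. The part of these cell types in the values of MRC2 and LAMA4 was not tested.

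NEFH (chr22:29887194-29887253), the heavy neurofilament chain of large axons, read 68.7 and 20.2 under mock and 96.8 and 115 under TSA, against 2.80 to 3.12. It was the only member in the list of neuronal genes, and both TSA arrays lay above both mock arrays. The summed signal of the 7 neuronal marker probes was 4206 and 4532 in siCONT mock, 3507 and 4830 in depleted mock, 12809 and 13064 in siCONT with TSA, and 12148 and 13455 in depleted cells with TSA. This sum followed TSA and not UHRF1, and its part in the signal of NEFH was not tested. RBP7 (chr1:10068313-10075879, a probe across an intron), a carrier of retinol inside cells, read 27.8 and 20.1 under mock and 70.3 and 55.2 under TSA, against 3.70 to 9.39. The siCONT arrays with TSA, at 8.59 and 9.39, were its highest control values.

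The noncoding and unannotated members ranged from LOC100128098 and XLOC_l2_015849, among the brightest, to the dimmer BOK-AS1 and XLOC_013940. LOC100128098 (chr10:17450228-17450285), now ST8SIA6-AS1, an RNA antisense to a sialyltransferase gene, read 503 and 89.0 under mock and 139 and 111 under TSA, against 2.80 to 6.56. BOK-AS1 (chr2:242484047-242484106), antisense to the BCL2 family gene BOK, read 107 and 67.6 under mock and 46.6 and 57.3 under TSA, against 2.97 to 9.21. The remaining 5 members were ESPNL, GPAT2, TMEM121, FBXO44 and the intergenic transcript XLOC_013940, with signals between 26.3 and 97.2 in depleted cells.

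Where a member gene had further probes, they did not all follow. For NEFH and ESPNL the further probe was below background on all arrays, and for BMP7 1 of its 2 further probes passed on a single array, siUHRF1-1 with mock (24.9). The second probe of MAGEA2B read 22.6 and 3.12 under mock and 26.9 and 21.9 under TSA, below 3.1 on the siCONT arrays. Of the 6 further probes of RBMY1B, only the one just outside the limits passed on all depleted arrays, and the other 5 passed on 0 or 1 of them. A further probe of LAMA4, 1 of 3, was above background on 3 siCONT arrays (up to 20.1), and that of FBXO44 on 1 (22.5). The other 2 further probes of LAMA4 were below background on all arrays. GPAT2, a mitochondrial acyltransferase of the testis chosen here after its values were seen, is a further case. Its member probe (chr2:96687777-96687836) read 80.5 and 30.2 under mock and 70.0 and 54.0 under TSA, against 3.06 to 9.56. A neighbouring probe that shares the 26 bases aatataatcattgaggcttgattgtc with it read 142 and 98.6, and 128 and 123, but also 61.5 to 67.9 on the 4 siCONT arrays. The other 2 further probes of GPAT2 were below background on all arrays (3.14 to 3.59 and 3.09 to 8.74). So a probe dark in siCONT cells does not by itself show that the gene was dark. Which of these probes follows the gene was not tested.

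The effect of TSA within depleted cells, which the rule did not use as a contrast, was tested with limma over all 23912 probes well above background on both arrays of a depleted group, and all 24 members were among them. The rule still bears on these differences, since it holds every member at 20 or more under both agents. A call required a 2-fold or larger difference and p under 0.05 after Benjamini-Hochberg adjustment. Of the 24 members 3 were called higher with TSA (RBP7, RBMY1B and XAGE1A), where 10.3% of all tested probes were, and 1 was called lower (TEKT2), where 7.80% were. Where all 4 depleted arrays had to be above background, as they were for every member, 6.31% of probes were called higher and 7.90% lower. Too few members were called to set their shares apart from either background.

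The 4 members called were read by the following probes (hg19), printed 5′ to 3′ in lower case.
XAGE1A (chrX:52241141-52241200, plus strand): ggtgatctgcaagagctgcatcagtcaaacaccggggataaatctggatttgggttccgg
RBMY1B (chrY:23687208-23687267, plus strand): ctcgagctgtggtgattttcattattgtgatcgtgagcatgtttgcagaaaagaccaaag
RBP7 (chr1:10068313-10075879, plus strand): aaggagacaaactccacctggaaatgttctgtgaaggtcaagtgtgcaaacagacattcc
TEKT2 (chr1:36553724-36553783, plus strand): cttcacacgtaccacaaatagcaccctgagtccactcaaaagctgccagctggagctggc

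XAGE1A was higher with TSA by 2.15 ± 0.48 on the log2 scale (SE, 2 arrays an agent; limma, adjusted p = 0.0351), by 2.64 with siUHRF1-1 and by 1.66 with siUHRF1-2. RBMY1B was higher by 2.04 ± 0.40 (adjusted p = 0.0250) and RBP7 by 1.50 ± 0.25 (adjusted p = 0.0170). TEKT2 fell by 1.69 ± 0.31 (adjusted p = 0.0208), and did so with both siRNAs. Without the siUHRF1-1 TSA array none of the 4 was called, and with arrays scaled to their median, which lowered the median of all tested probes by 0.39, XAGE1A (adjusted p = 0.0554) and RBMY1B (adjusted p = 0.0563) were no longer called. TSA was given in the second row of the slide and mock in the first, so that agent and slide row cannot be told apart.

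A further 6 members differed by at least 2-fold without passing the test. MAGEA2B differed by 1.77 ± 0.82 (limma, adjusted p = 0.189), NEFH by 1.60 ± 0.48 (adjusted p = 0.0732) and MAGEA9 by 1.28 ± 0.59 (adjusted p = 0.188), each above mock. The values were -2.01 ± 0.85 for BMP7 (adjusted p = 0.156), -1.86 ± 0.56 for PRAC (adjusted p = 0.0728) and -1.32 ± 0.37 for CTAG1A (adjusted p = 0.0636), each below mock. The arrays of the 2 agents also share the siRNA, and with the siRNA as a replicate block 5 of these 6 passed (limma, adjusted p = 0.0125 for MAGEA2B, 0.0130 for CTAG1A, 0.0147 for PRAC, 0.0261 for NEFH and 0.0270 for MAGEA9), and BMP7 did not (adjusted p = 0.0650). The block called 12.6% of all tested probes higher and 9.62% lower. For BMP7 the siRNAs were furthest apart, at -3.52 with siUHRF1-1 and -0.49 with siUHRF1-2. The other 14 members differed by less than 2-fold. Over the 24 members the median was -0.20, against -0.04 over all tested probes. With both siRNAs 7 members were above mock, 9 were below, and 8 went opposite ways, against 35.7%, 41.2% and 23.1% of all tested probes.

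**Figure D2:**
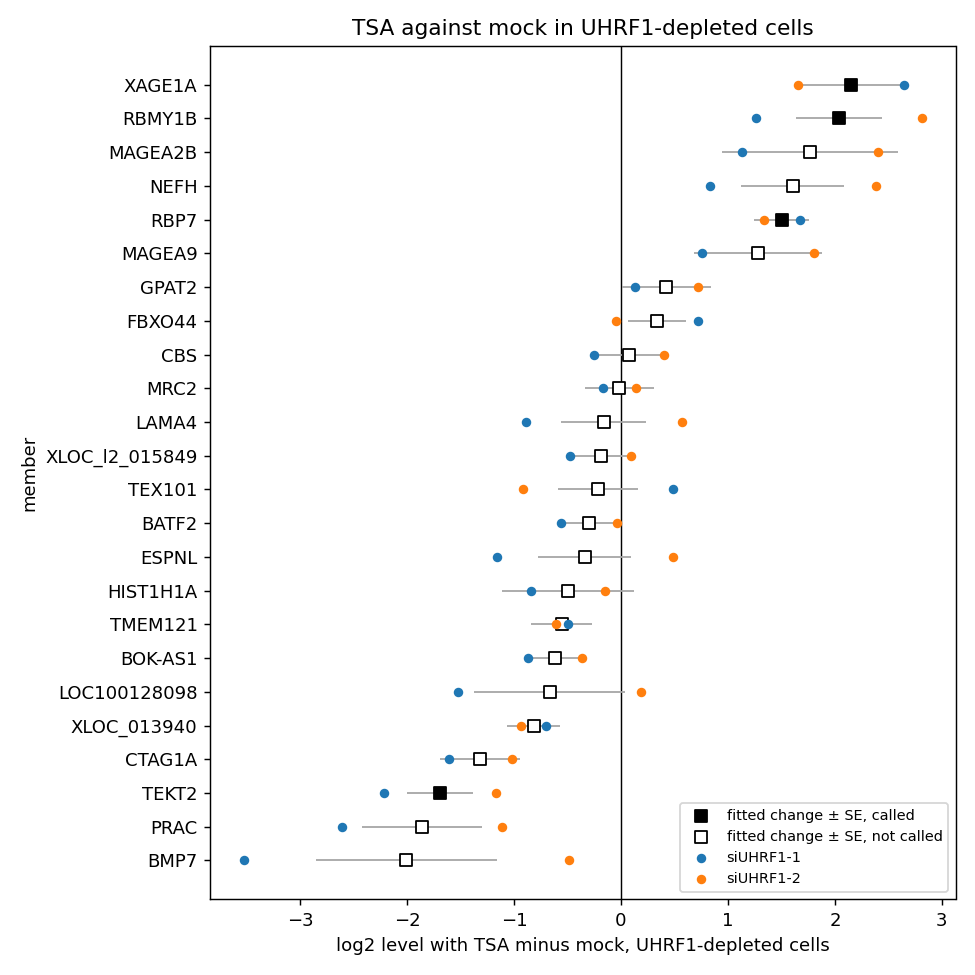
Log2 level with TSA minus mock in UHRF1-depleted cells for each member, as the fitted change with its SE (squares, filled where called) and the difference with each siRNA (points). The 3 filled squares on the right are XAGE1A, RBMY1B and RBP7, the 1 on the left is TEKT2, and the points of BMP7 lie at -3.52 and -0.49.

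The cancer-testis list, to which CTAG1A, XAGE1A and MAGEA9 belong, was read by 77 probes of 64 genes. On both arrays of a group 13 of its probes were well above background in siCONT mock, 20 in depleted mock, 14 in siCONT with TSA and 35 in depleted cells with TSA. Of its 37 tested probes 19 were called higher with TSA and 1 lower in depleted cells, with a median of 1.51, where the median of all tested probes was -0.04. Probes that passed the filter only through the TSA arrays had to be higher there: where all 4 arrays of depleted cells had to be above background, 5 of 18 probes of the list were called higher and 0 lower (median 0.72), against 6.31% and 7.90% of all probes so tested (median -0.08). The median of the list lay between 0.56 and 2.14 under all 16 alternatives. The number called higher was less stable. It was 10 with normexp background correction, 13 with median scaling, 24 with the replicate block and 0 with the adjusted t-test. The list was chosen with results of these data known, so its counts are a description.

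CTAG1A was below its mock level in a list whose median was above it, and so was its close relative CTAG2, a nearby gene of the same family with 1 siCONT array above background. CTAG2 read 397 and 147 under mock and 94.1 and 91.6 under TSA, against 3.73 to 17.8. Probes of the SPANX genes of sperm nuclei were examples of the other kind: SPANXA1 read 3.88 and 2.75 under mock and 1451 and 608 under TSA in depleted cells, against 2.67 to 8.08 with siCONT. By unscaled signal, a probe of MAGEA6 (186 and 37.1 under mock, 340 and 149 under TSA) behaved like MAGEA9 and MAGEA2B. Its siCONT values were 3.37 and 3.44 under mock and 10.5 and 13.4 under TSA. It was kept out by the limit on the latter. The further probe of MAGEA6 was above background on all 4 siCONT arrays (21.5 to 23.9). CTAG2, SPANXA1 and MAGEA6 were picked here after their values were seen.

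**Figure D3:**
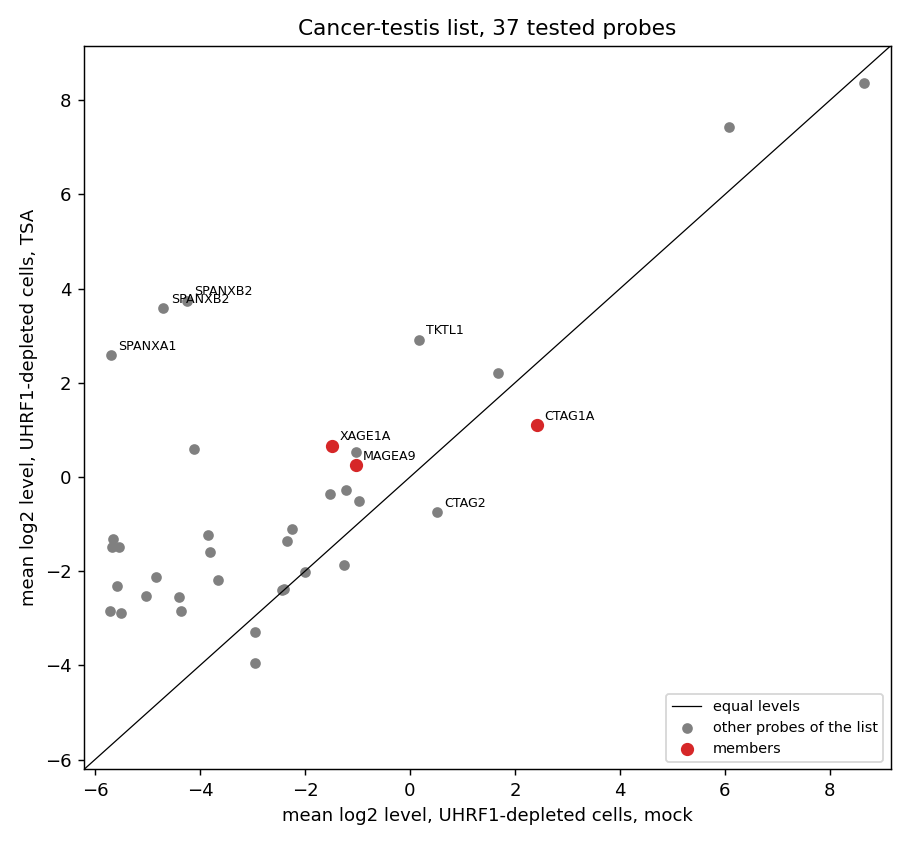
Mean log2 level (relative to the 75th percentile of each array) under mock and under TSA in UHRF1-depleted cells for the 37 tested probes of the cancer-testis list, with the line of equal levels. XAGE1A and MAGEA9 lie above the line, CTAG1A (log2 difference -1.32) and CTAG2 below it, and the SPANX probes far above it at the left.

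The germline list, with TEX101 as its only member, had 25 tested probes, of which 7 were called higher with TSA and 2 lower (median 0.63), and where all 4 arrays had to be above background 5 of 20 were higher and 2 lower (median 0.21). In the neuronal list, with NEFH, 10 of 24 tested probes were called higher and 0 lower (median 1.11), and where all 4 arrays had to be above background 3 of 17 were higher (median 0.39). Of all tested probes 10.3% were called higher and 7.80% lower (median -0.04). Where all 4 arrays had to pass, 6.31% and 7.90% were (median -0.08). The wider counts include probes that passed only through the TSA arrays. Over all settings the medians lay between 0.21 and 0.79 for the germline list and between 0.39 and 1.33 for the neuronal list. With the adjusted t-test neither list had a call. Outside the limits but above background on all depleted arrays and on no siCONT array were the germline genes STK31, SOHLH1 and GTSF1. GTSF1, a cofactor of piRNA silencing, read 59.6 and 28.0 under mock and 291 and 135 under TSA, and SOHLH1, a transcription factor of germ cells, read 64.4 and 30.4 under mock and 104 and 135 under TSA. The lists of imprinted, interferon-stimulated, retinoid, keratin, secreted defence and colorectal hypermethylated genes held 0 members.

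The 2 siRNAs gave unequal levels. Under mock 21 of 24 members were lower with siUHRF1-2 than with siUHRF1-1 (median log2 difference -0.84), against 44.9% of all tested probes (median 0.06). Under TSA 15 of 24 were lower (median -0.25), against 53.7% (median -0.03). The siRNAs were over 2-fold apart for 9 members under mock and 3 under TSA, where 8.08% and 4.80% of all tested probes were. By unscaled signal, siUHRF1-1 with mock was the brightest of the 4 depleted arrays for 15 members and siUHRF1-2 with mock the dimmest for 12. The siUHRF1-1 mock array also had the highest 75th percentile of all arrays (189), which these 2 counts do not take into account. UHRF1 itself was lower with siUHRF1-2, as given above, so that the siRNA that left less UHRF1 RNA gave the lower signal for most members under mock.

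In the limma fit of siUHRF1-2 against siUHRF1-1 over both agents, no member was called, and 3 of the 23912 tested probes were (0.0125%). With 1 residual degree of freedom this fit is the weaker of the 2. At an unadjusted p under 0.05 there were 8 members, all lower with siUHRF1-2, against 10.9% of all tested probes. Of these 8 members 4 were also at least 2-fold apart, against 3.35% of all tested probes, and the methods' t-test called none. The lowest adjusted p was that of MAGEA2B (log2 difference -1.74 ± 0.34, limma, adjusted p = 0.211), which read 152 and 23.3 under mock and 264 and 134 under TSA. HIST1H1A followed with -1.30 ± 0.27 (adjusted p = 0.222), MAGEA9 with -1.18 ± 0.31 (adjusted p = 0.286) and LOC100128098 with -1.31 ± 0.41 (adjusted p = 0.349). BMP7 differed by -1.16 ± 0.65 (adjusted p = 0.60), with -2.68 under mock and 0.36 under TSA. The members at the other end were TEX101, FBXO44 and XLOC_013940, the only 3 that were higher with siUHRF1-2 under mock.

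**Figure D4:**
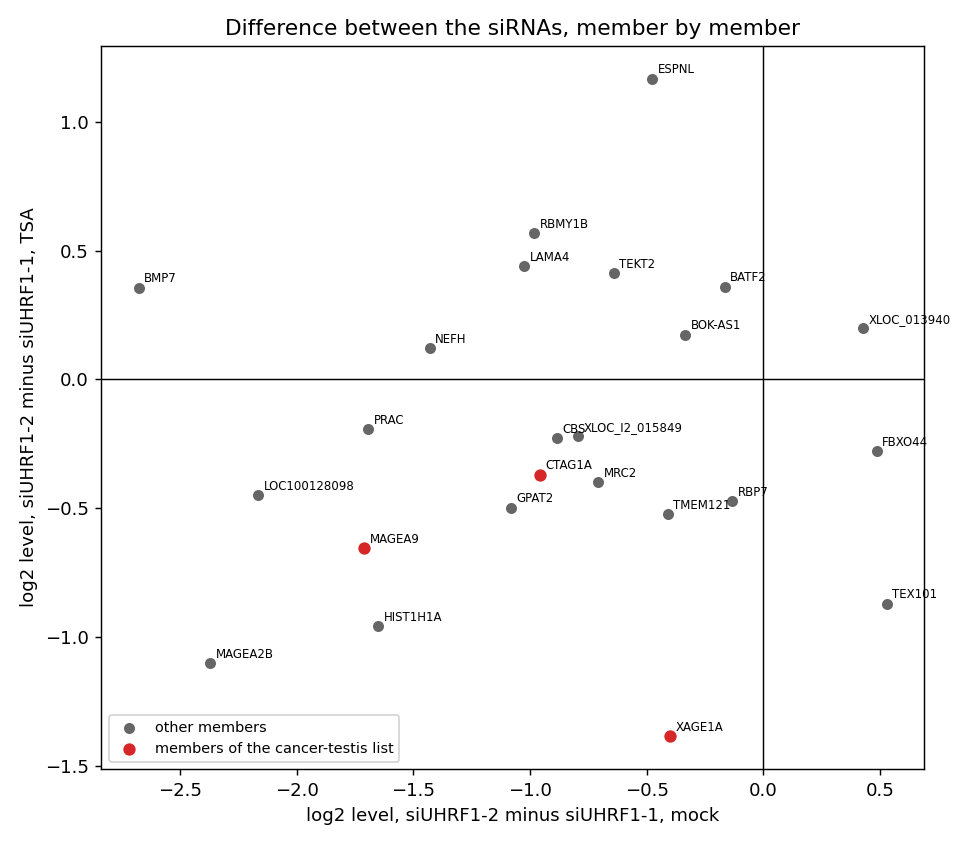
Difference between the siRNAs (log2 level, siUHRF1-2 minus siUHRF1-1) under mock (x axis) and under TSA (y axis), 1 point a member. All but 3 points lie left of 0, with BMP7 at -2.68 under mock, and 15 lie below 0 under TSA.

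The members' promoters were compared with those of the array for CpG content, which the rule did not use directly. The rule took only probes dark in siCONT cells, while the array genes and the tested genes include many that were not. Genes dark in siCONT cells were not compared as a set, so the part of that choice in the differences was not tested. RefSeq windows of 250 bases before to 50 after the start were found for 16 members. CTAG1A, BMP7, MRC2, TEKT2, NEFH, LOC100128098, XLOC_l2_015849 and XLOC_013940 had no entry. The 16 windows held a median of 17 CpG sites, with an observed over expected ratio of 0.55, against 22 sites and 0.77 over 15701 array genes, and 11 sites and 0.43 over 50 genes of the cancer-testis list. The ratio was at least 0.6, a usual limit for a CpG island, in 6 of 16 members (37.5%), 66.2% of array genes, 79.0% of the 10893 genes tested in depleted cells, 45.9% of the genes lit by TSA with either siRNA, 43.3% of those lit only by the combination, 25.0% (2 of 8) of those lit by depletion under mock and not under TSA, and 22.0% of the cancer-testis list.

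The members ranged widely. FBXO44 (ratio 1.08, 43 sites), CBS (1.03, 50 sites) and BOK-AS1 (0.91, 37 sites) had dense windows, followed by RBP7 with 29 and RBMY1B with 23 sites (ratios of 0.77 and 0.76). XAGE1A and MAGEA2B stood just under the limit at 0.59 with 17 sites each, and MAGEA9 had 10 sites (0.32). GPAT2, TEX101 and ESPNL held 3, 3 and 5 sites in 300 bases. CBS and FBXO44, with the highest ratios, were among the brightest and among the dimmest members, respectively. DNA methylation was not measured on these arrays.

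**Figure D5:**
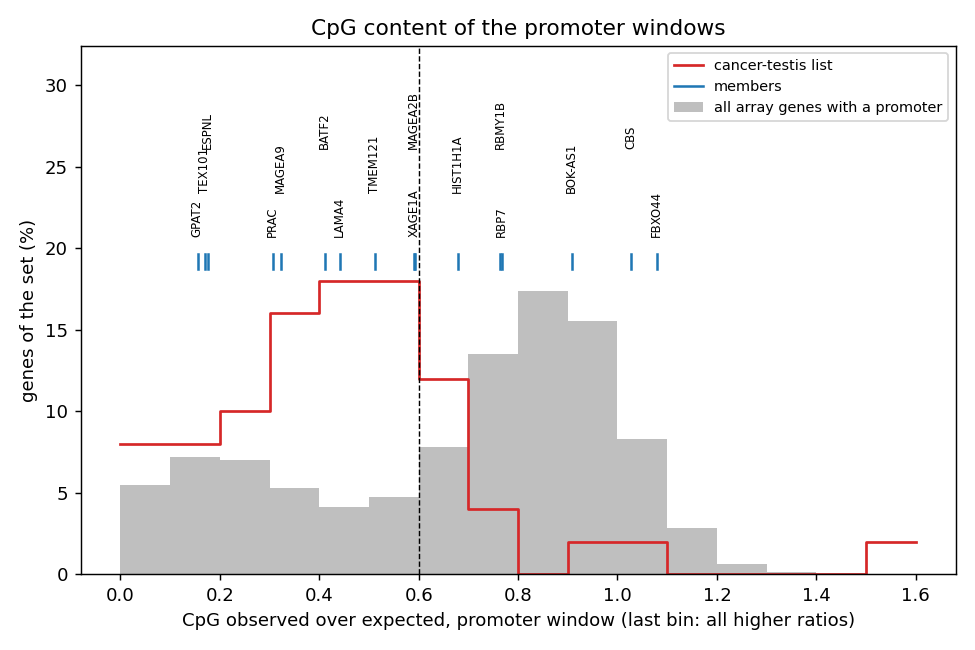
CpG observed over expected ratio of the promoter windows (x axis) for all array genes (grey bars) and the cancer-testis list (red line), in percent of each set's genes (y axis), with the 16 members with a window marked above. The members are spread from 0.16 (GPAT2) to 1.08 (FBXO44), and 6 lie at or right of the dashed limit of 0.6.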

How the data were processed

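Total RNA of DLD1 cells was hybridised to 8 Agilent SurePrint G3 Human GE v2 arrays on 1 slide, read in 1 scan. The deposited scanner files hold the intensity of each spot, which the authors extracted with Agilent Feature Extraction (10.7 per the submitters' processing notes, 10.7.3.1 per the file headers); the processed intensity is background-subtracted and not scaled between arrays. The authors' series matrix holds the same intensity. All 62976 spots were read, 58717 non-control spots were averaged to 50599 probes, and outlier spots were kept.

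The level is log2 of the processed intensity minus the array's 75th percentile over non-control probes. Fits used lmFit and eBayes (limma 3.58.1, R 4.3.3) on the 4 arrays of depleted cells, once with 2 agent means and once with siRNA and agent terms, over 23912 probes. Scripts were tested on simulated data. The authors name GeneSpring GX, t tests or ANOVA, and a limit of over 2-fold with p under 0.05, but no normalization. The percentile scaling was therefore chosen here. The number of arrays limits the precision. In lower bounds, the dim group's value on an array was the lowest detected signal there, or the probe's own if higher.

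Current symbols came from RefSeq, matched for 28392 probes (56.1%), and promoters from RefSeq (GRCh38.p14); probe coordinates are hg19 as the files give them. Named genes were the 15 brightest members, those called, those in a gene list, and those nearest to the limits. Others were named after their values were seen, among them GPAT2, CTAG2, SPANXA1 and MAGEA6. The members and gene lists were chosen with earlier results of these data known. Alternatives were other scalings, background correction, filters, sample sets, a replicate block and leaving out each array.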

Additional observations from a re-analysis of the deposited data

How the results depend on the processing

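The rule chose 13 probes with a limit of 30 on the depleted arrays and 37 with 15, 15 with a limit of 7 on the siCONT arrays, and 85 by detection flags alone, which include all 24. Scaling the arrays first gave 25 probes, 22 of them shared, without CBS and TEX101. Leaving out 1 array gave 25 to 53 probes, the most without siUHRF1-2 with mock. Outlier spots and the series matrix changed no member.

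For TSA against mock, probes called higher and lower numbered 1170 and 1133 with normexp and 0 and 0 after adjustment of the methods' t-test; 4038 were lower with median scaling, 912 lower without a filter, and 1318 higher where all 4 arrays had to pass. Of the called probes 57.0% were higher, 30.9% with median scaling (shift of the median -0.39), 68.6% with the percentile over probes detected on all arrays (shift 0.16), 69.1% without a filter and 44.4% where all 4 arrays had to pass. Leaving out 1 array gave 1354 to 2906 higher and 530 to 1909 lower. Members called higher were 1 with median scaling, with the unadjusted t-test and without a filter, and 0 with the adjusted t-test. Members called lower were 3 with all 8 arrays, 3 with median scaling, 2 with quantile normalization and 0 with the adjusted t-test. Leaving out 1 array gave 0 to 5 higher and 0 to 5 lower: 0 and 0 without siUHRF1-1 with TSA, 2 and 0 without siUHRF1-2 with TSA, 5 and 1 without siUHRF1-1 with mock, 2 and 5 without siUHRF1-2 with mock. With the siRNA, which the arrays of both agents share, as a replicate block (deviations of siUHRF1-1 under mock and TSA correlated at r = 0.32 across 20871 probes), 6 members were higher and 3 lower, MAGEA2B, MAGEA9, NEFH, CTAG1A and PRAC being added. None of the 10 members that differed by 2-fold reversed, while 10 of the other 14 changed sign under at least 1 of 16 alternatives.

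For siUHRF1-2 against siUHRF1-1, probes called were 7 with the percentile over probes detected on all arrays, 371 with all 8 arrays, 6 with median scaling, 663 without a filter, 208 with normexp, 262 where all 4 arrays had to pass, 106 with the unadjusted t-test, and 0 with the adjusted t-test, quantile normalization or no agent term. Members called were 1 without a filter (MAGEA2B), 1 with normexp (LOC100128098) and 2 where all 4 arrays had to pass. Leaving out 1 array, in a fit of the other 7 that was chosen after seeing the data, gave 797 to 1314 probes and 1 to 6 members, and for BMP7 gave 0.36, a reversal, without a mock array and -2.68 without a TSA array, against -1.16. Such a fit compares the siRNAs through 1 array each, those of the agent that kept both. Its residual spread comes only from the siCONT pairs, which may be technical repeats and in which the members were at background. The calls without 1 array therefore do not take the spread between arrays of depleted cells into account, and no conclusion is drawn from them. The causes of the differences between settings were not tested. Members near background on some depleted arrays are the least certain.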
